A study of Mus musculus with 12 samples.

Results

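The 48 genes described here encode nucleolar proteins that build ribosomes, together with a few other direct targets of the transcription factor MYC. They were taken by name from a table of 37187 mouse genes. The rule for the names uses no measured value, though earlier results of these data were known when it was written. All 48 passed the filter on low values (a value no lower than 10 in 3 libraries or more) and so belong to the 14045 genes tested. They fall into 5 roles. The nucleolar scaffold and rRNA transcription group holds 6 genes, the snoRNP and rRNA modification group 8, the small subunit processome and 40S maturation group 16, the 60S assembly group 13, and the group of exosome, import and other MYC targets 5.

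The cells were sorted from mouse bone marrow as lineage-negative, Sca-1-positive and CD117-positive (LSK) cells, the gate that holds stem cells and multipotent progenitors. There were 4 groups of 3 libraries. By their labels, the groups are wild type (WT), knockout of Tet2 (Tet2 KO), knockout of Traf6 (Traf6 KO) and knockout of both, labelled Tet2;TRaf6 dKO (dKO). Tet2 encodes an enzyme that oxidises methylated cytosine in DNA, and Traf6 a ubiquitin ligase of innate immune signalling. The labels give neither the age of the mice, nor the deleted exons, nor what drove the deletion. They do not say whether libraries of 1 genotype are separate mice, so the p-values may reflect technical spread only. The title of the study names TRAF6 as acting on MYC activity, which is why MYC targets are of interest in these genotypes.

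Ribosomes are assembled in the nucleolus, where RNA polymerase I makes a long precursor rRNA. Small nucleolar ribonucleoproteins (snoRNPs) modify that precursor, the small subunit processome cleaves and folds the part that becomes the 40S subunit, and a separate set of factors builds the 60S subunit around the rest. MYC binds E-box motifs near the promoters of many of these genes and raises their transcription, and progenitors that leave quiescence are known to make more ribosomes.

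A canonical E-box is the sequence CACGTG, which is its own reverse complement, so that both strands were searched at once. RefSeq promoters (assembly GRCm38.p6, 250 bases before to 50 after each gene's start) matched 42 of the 48 genes by symbol. The motif was present in 12 of these 42 (28.6%). It was present in 8.09% of 27025 genes with such an entry and in 11.7% of the 9433 of them that were tested. The non-canonical form CACGCG, searched on both strands, was present in 10 of the 42 (23.8%), against 10.5% and 19.5%. The 3 windows that lie wholly upstream of the start are shown first, to let a reader see the motif in its setting, with the motif in capitals and every other base in lower case, 5′ to 3′ on the gene's strand.
Exosc5, chr7:25659082-25659141, plus strand: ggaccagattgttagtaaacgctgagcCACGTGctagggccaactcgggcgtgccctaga
Imp4, chr1:34439681-34439740, plus strand: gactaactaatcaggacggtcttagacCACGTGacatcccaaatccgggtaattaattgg
Nop2, chr6:125131796-125131855, plus strand: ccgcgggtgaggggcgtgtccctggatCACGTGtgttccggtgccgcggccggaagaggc

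In the 9 other genes with the motif (Grwd1, Ipo4, Ltv1, Mybbp1a, Nle1, Pes1, Tsr1, Utp20 and Wdr43) it starts within the first 50 transcribed bases. Short windows of 4 of these are given because the genes recur in the results below.
Ltv1, chr10:13193092-13193121, minus strand: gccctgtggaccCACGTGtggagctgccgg
Pes1, chr11:3963965-3963994, plus strand: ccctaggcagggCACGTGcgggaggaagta
Utp20, chr10:88826765-88826789, minus strand: cggcactaactaCACGTGaggaaaa
Ipo4, chr14:55635653-55635682, minus strand: tgtcggagtctcCACGTGccgatcctcccc

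Values are the authors' normalised signal, in which the reads of a gene are scaled by 1 factor for each library. The libraries held 22169673 to 53921402 recovered reads, and the members stood between 107 and 68371 signal units in single libraries. Together the 48 genes took 0.896 ± 0.058% of the signal in WT (SD, n = 3). The share was 0.970 ± 0.111% for Tet2 KO, 0.914 ± 0.125% for Traf6 KO and 1.06 ± 0.118% for dKO. Single libraries ran from 0.840% to 0.955% in WT and from 0.964% to 1.19% in dKO, without overlap, while both single-knockout groups overlapped WT and dKO. The kit used does not mark strand, so reads of 17 members cannot be told apart from reads of a gene whose exons overlap theirs on the other strand. The longest such overlaps are 1240 bases between Tsr1 and Srr and 820 bases between Wdr3 and Spag17. On the same strand, 2583 exonic bases of Ipo4 are shared with Gm49378, and 6 members (Npm1, Ddx21, Nop56, Pes1, Wdr12 and Ddx18) have near-identical copies elsewhere, so these values are uncertain. The introns and exons of 8 members hold 23 annotated snoRNAs.

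Several facts of the libraries touch all results that follow. Tet2 signal in Tet2 KO replicate 1 (668) and Traf6 signal in Traf6 KO replicate 1 (2474) stood within the WT ranges (525 to 783 and 1935 to 3006), so these are called the libraries labelled Tet2 KO and Traf6 KO replicate 1. Tet2 was lower in dKO than in WT (log2 change -1.39, limma adjusted p = 0.0066), and so was Traf6 (-1.36, adjusted p = 0.028). In that comparison 26.5% of all genes were called lower. Whether the length trend described below has a part in the falls of Tet2 and Traf6 was not tested. Neither targeted gene passed the test in its single knockout (limma adjusted p = 0.97 and 0.50). The position of the deleted part is not given in the labels. Tet2 signal did not separate the single-knockout groups from each other. Replicates 2 and 3 labelled Tet2 KO had 403 and 486, while those labelled Traf6 KO had 339 and 427. The log2 change of Tet2 from WT was -0.41 for the first label and -0.51 for the second. Traf6 signal of Tet2 KO replicates 2 and 3 (1432 and 1776) was also below the WT range. It was lower still for Traf6 KO replicates 2 and 3 (854 and 568). Xist, which is made in female cells, was at 990 to 3826 in the 6 single-knockout libraries and at most 17.0 in the WT and dKO libraries. The Y-linked gene Eif2s3y was at 2812 to 5669 signal units in WT and dKO libraries, at 1524 in Traf6 KO replicate 1 and at most 55.4 in the other single-knockout libraries. Traf6 KO replicate 1 thus held both Xist (1574) and Eif2s3y, and whether libraries were mixed or exchanged was not tested. Values of the single-knockout groups depend on their labels being right. Sex and genotype cannot be told apart in comparisons of a single knockout with WT or dKO, nor in the interaction described below. Myc itself did not pass the test in dKO against WT, at 27733, 28914 and 19627 in dKO and 18778, 19732 and 19670 in WT (log2 change 0.37, adjusted p = 0.21).

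All 10 LSK markers were detected in every group, with summed signal of 143147 to 159659 in WT and 108444 to 125659 in dKO. In dKO against WT 1 of the 10 was higher and 5 were lower. Kit, which encodes the sorted marker CD117, was at 44484 to 47837 in WT and at 11935, 4099 and 4105 in dKO. Ly6a, which encodes the sorted marker Sca-1, was at 1990 to 2339 in WT and at 1968, 2446 and 13218 in dKO. Of 8 granulocyte and monocyte progenitor markers 7 were higher in dKO than in WT. Their sum was 15257 to 28027 in WT, 47891 to 103864 in Tet2 KO, 18654 to 121673 in Traf6 KO and 124984 to 203588 in dKO. Mast cell and basophil markers were higher for 6 of 7 tested, with sums of 1402 to 2440 in WT, 1552 to 2096 in Tet2 KO, 3368 to 10451 in Traf6 KO and 7256 to 11662 in dKO. Erythroid markers were higher for 3 of 10, with sums of 45474 to 57250 in WT and 84117 to 120226 in dKO. Those sums were 62470 to 187811 in Tet2 KO, which reaches above dKO, and 52964 to 62412 in Traf6 KO. Mature lymphoid markers were higher for 3 of 6 tested, with sums of 4490 to 6192 in WT and 9217 to 57199 in dKO. Among them Cd3e was at 0 in all libraries. Nkg7 was at 4565, 3418 and 3889 in WT and at 7361, 10721 and 49423 in dKO. Mature myeloid markers were higher for 0 of 8 tested and lower for 1, with sums of 1779 to 4278 in WT and 2038 to 6707 in dKO. Over all genes tested 21.9% were called higher and 26.5% lower in dKO than in WT. Whether the length trend described below has a part in these marker changes was not tested. Whether a change of cell types has a part in the members' changes was not tested either. In bulk samples fewer cells of a type and less RNA per cell cannot be told apart.

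In WT the members were well expressed and close together between libraries. Signal per kilobase of the representative transcript ranged from 232 to 5491 with a median of 1365, and the median coefficient of variation over the 3 WT libraries was 12.9%. The highest levels per kilobase belonged to Nop58 (5491), Ncl (5314), Nop56 (4688), Dkc1 (4007) and Npm1 (3810). Nop56, Nop58 and Dkc1 are core proteins of the box C/D and box H/ACA snoRNPs, Ncl (nucleolin) binds precursor rRNA, and Npm1 (nucleophosmin) is a histone and ribosome chaperone. In the small subunit group Wdr43 (3400) and Rcl1 (2141) led, in the 60S group Gnl3 (3160) and Ppan (1887), and among the other MYC targets Dctpp1 (2247) and Exosc5 (1488). The lowest were Utp20 (232) and Cbx3 (234). The representative transcript of some members carries a long untranslated extension (Wdr12 10012 nucleotides against a coding length of 1269, Ncl 8202 against 2121), so their levels per kilobase are low estimates.

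**Figure D1:**
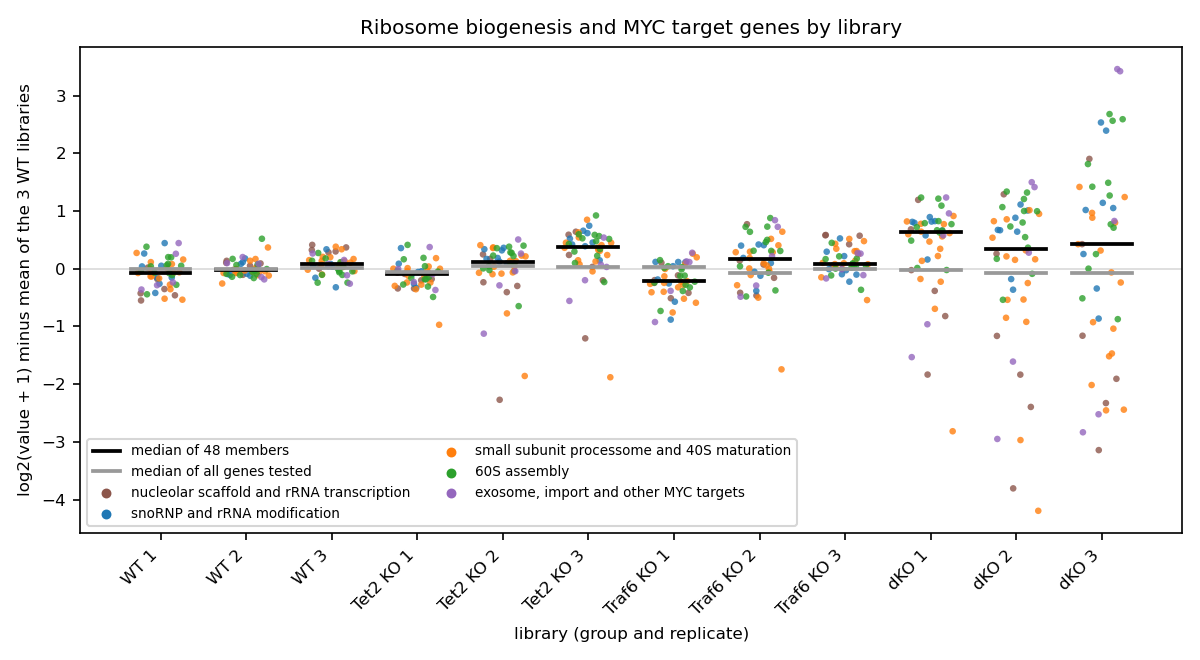
Each point is 1 member in 1 library, as log2(value + 1) minus the mean of the 3 WT libraries, coloured by role. Black bars are the medians of the 48 members and grey bars those of all genes tested. The member medians are 0.63, 0.34 and 0.43 in the dKO libraries, and the points spread more widely there than in the other groups.

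Library by library, the median of the 48 members relative to the WT mean was -0.10, 0.12 and 0.38 on the log2 scale in Tet2 KO replicates 1 to 3. It was -0.22, 0.16 and 0.09 in Traf6 KO, while dKO libraries stood at 0.63, 0.34 and 0.43 and WT libraries at -0.07, -0.03 and 0.08. The medians of all genes tested lay between -0.08 and 0.05 in the 12 libraries. The number of members above the WT mean was 12, 32 and 41 in Tet2 KO, 15, 31 and 35 in Traf6 KO. For dKO it was 37, 31 and 29. The plot of members by library shows that the dKO libraries differ from the rest in spread as well as in the median, with members both far above and far below the WT mean.

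In the group labelled Tet2 KO none of the 48 genes had a called change. In limma with Benjamini-Hochberg adjustment over all genes tested, 0 members were higher and 0 lower in Tet2 KO than in WT, where 0.107% and 0.306% of all genes were called. At an unadjusted p under 0.05 there were 2 members (8.44% of all genes were under it), edgeR called 0, and DESeq2 called 1 (Utp20, lower). The median log2 change was 0.13, beside 0.02 over all genes, with 36 members positive and 12 negative. Standard errors of the members ranged from 0.19 to 0.50, which limits what could be seen. The 4 members whose Tet2 KO libraries all lay above WT were Gnl3, Dkc1, Ppan and Ddx52, and the 2 whose libraries all lay below were Utp20 and Heatr1 (groups did not overlap for 8.07% of all genes above and 11.1% below).

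Utp20, a very long scaffold protein of the small subunit processome, had the smallest p. It stood at 1362, 2550 and 2221 in WT and at 1007, 544 and 536 in Tet2 KO (log2 change -1.57 ± 0.48 (SE), limma adjusted p = 0.23). Heatr1, the processome protein also known to promote rRNA transcription, was at 4542, 4777 and 6256 in WT and at 4055, 1064 and 2226 in Tet2 KO (-1.27 ± 0.49, adjusted p = 0.42). For both genes the library labelled Tet2 KO replicate 1 lay nearest to WT. Gnl3 (nucleostemin), a GTPase of 60S assembly that is abundant in stem cells, was at 6321, 6424 and 5711 in WT and at 8180, 7196 and 9290 in Tet2 KO (0.41 ± 0.21, adjusted p = 0.66).

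By role, the 8 snoRNP genes had a median log2 change of 0.23 in Tet2 KO against WT and were all positive. The 13 genes of 60S assembly had a median of 0.16, the 16 of the small subunit 0.11, the 5 other MYC targets -0.02 and the 6 scaffold and rRNA transcription genes -0.15. None of these group values rests on a called gene.

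In the group labelled Traf6 KO 0 members were higher and 0 lower than WT (limma, Benjamini-Hochberg; 0.0783% and 0.192% of all genes called). An unadjusted p under 0.05 was reached by 0 members and by 7.80% of all genes, and edgeR and DESeq2 called 0. The median log2 change was 0.07, beside -0.03 over all genes, with 29 members positive and 19 negative. The smallest p again belonged to Utp20, at 1312, 589 and 1355 in Traf6 KO (-0.96 ± 0.48, limma adjusted p = 0.68). All 3 of these values lay below the lowest WT library. Ddx52, an RNA helicase of the small subunit pathway, was at 2655, 2692 and 2985 in WT and at 3322, 3675 and 3864 in Traf6 KO (0.38 ± 0.23, adjusted p = 0.74), with no overlap of the groups. Nop2, an rRNA cytosine methyltransferase, was at 4916, 5927 and 5644 in WT and at 2972, 4199 and 5127 in Traf6 KO (-0.45 ± 0.29, adjusted p = 0.76), with overlap. In all, 4 members (Ddx52, Dkc1, Npm1 and Wdr43) lay wholly above WT and 2 (Utp20 and Nle1) wholly below, where 9.68% and 11.0% of all genes did so. With the transcript trend removed 0 members were called in Tet2 KO (0.161% of all genes higher, 0.336% lower) or in Traf6 KO (0.212% and 0.329%). With the coding trend removed, as described below, there were also 0 in Tet2 KO (0.142% and 0.379%) and in Traf6 KO (0.119% and 0.166%).

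In the group labelled dKO most of the 48 genes were changed, some upward and some downward. In dKO against WT 23 members were higher, 9 lower and 16 did not pass the test (limma, Benjamini-Hochberg). Over all genes tested 21.9% were called higher and 26.5% lower. The median log2 change of the members was 0.58, beside -0.09 over all genes. The dKO and WT libraries did not overlap for 26 members above and 8 below, beside 27.9% and 30.5% of all genes. The edgeR test called 21 higher and 7 lower (22.1% and 24.5% of all genes) and DESeq2 26 and 9 (26.9% and 26.3%). With libraries set to equal totals, which moved the median of all genes from -0.09 to -0.34, the split was 16 higher and 10 lower (16.3% and 29.6% of all genes). The calls of Dkc1, Grwd1, Ltv1, Mphosph10, Pes1, Rcl1 and Rrp9 were lost with that scaling. The 23 and 9 became 23 and 7 (20.4% and 24.9% of all genes) without the libraries labelled Tet2 KO and Traf6 KO replicate 1, which enter this comparison only through the shared estimate of spread.

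Short members tended to be higher and long members lower, as did short and long genes at large. RNA quality is not given in the labels, and its part in this trend, and so in the dKO calls, was not tested. Across the 48 members Spearman's rho between coding length and the dKO minus WT change was -0.91, and with transcript length it was -0.70. Over the genes tested that have a length, the same values were -0.62 (12658 genes) and -0.66 (13677 genes). These are correlations across genes of the same 6 libraries and are given as descriptions. Of 17 members with transcripts up to 2000 nucleotides, 15 were higher and 0 lower, where 51.7% and 2.54% of all genes of that length were called. Between 2000 and 4000 nucleotides 6 of 19 were higher and 3 lower (12.6% and 22.1% of all genes). Above 4000 nucleotides 2 of 12 were higher and 6 lower (3.86% and 58.4%). The median change of members was 0.99, 0.20 and -1.15 in these 3 classes, and that of all genes was 1.11, -0.24 and -1.39.

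**Figure D2:**
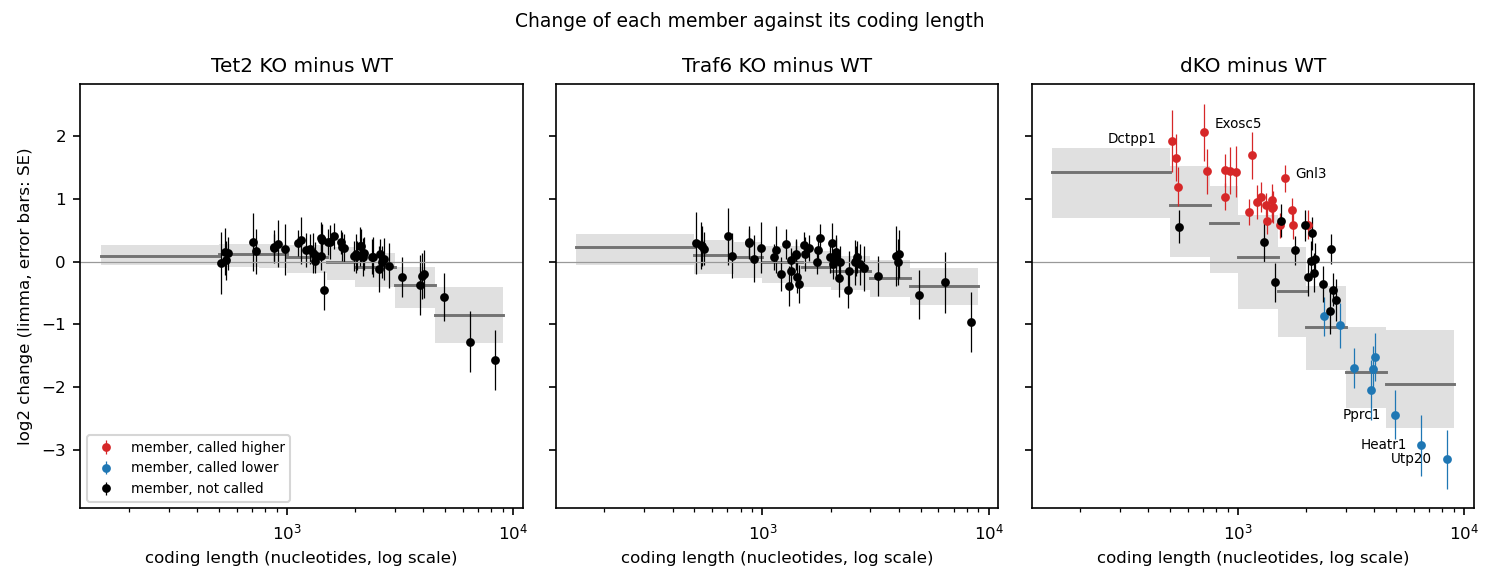
Each point is 1 member, with its coding length (log axis, nucleotides) against its log2 change and SE in each mutant group minus WT. Grey bars and boxes are the median and the quartiles of all genes tested in classes of coding length. In dKO minus WT the members fall from Dctpp1 (1.93) and Exosc5 (2.06) among the shortest to Utp20 (-3.15), the longest.

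Set beside genes of like coding length, the members stood on the high side in dKO against WT. In classes of coding length, 42 of the 48 lay above the class median of all genes and 28 above its upper quartile. Between 1500 and 2000 coding nucleotides, for instance, the 7 members had a median change of 0.59 and all 1991 genes -0.47. Between 2000 and 3000 the 13 members had a median of -0.24 and all 1994 genes -1.04. In the longest class, from 4500 to 9000, the order was the other way, with -2.93 for the 3 members (Utp20, Heatr1 and Pprc1) and -1.95 for 573 genes. In members' transcripts a median of 73.8% of the length is coding, against 52.9% in the genes tested, so a trend fitted on transcript length and one fitted on coding length treat them differently.

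For that reason each comparison was also fitted after the trend on length and GC content had been removed within each library, once with transcript length and once with coding length. With the transcript trend removed 16 members were higher and 4 lower in dKO than in WT, beside 11.9% and 12.5% of all genes, and the median was 0.22. With the coding trend removed, an alternative added after the data had been seen, 30 were higher and 2 lower, beside 18.1% and 17.5%, and the median was 0.68. The medians of all genes in these fits were -0.05 and 0.01. Called in the same direction in all 3 fits were 9 members that were higher (Dkc1, Ebna1bp2, Exosc5, Gnl3, Ltv1, Nop16, Npm1, Pes1 and Wdr12) and 2 that were lower (Heatr1 and Utp20). Of these, Dkc1, Ltv1 and Pes1 lost their call with equal library totals.

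**Figure D3:**
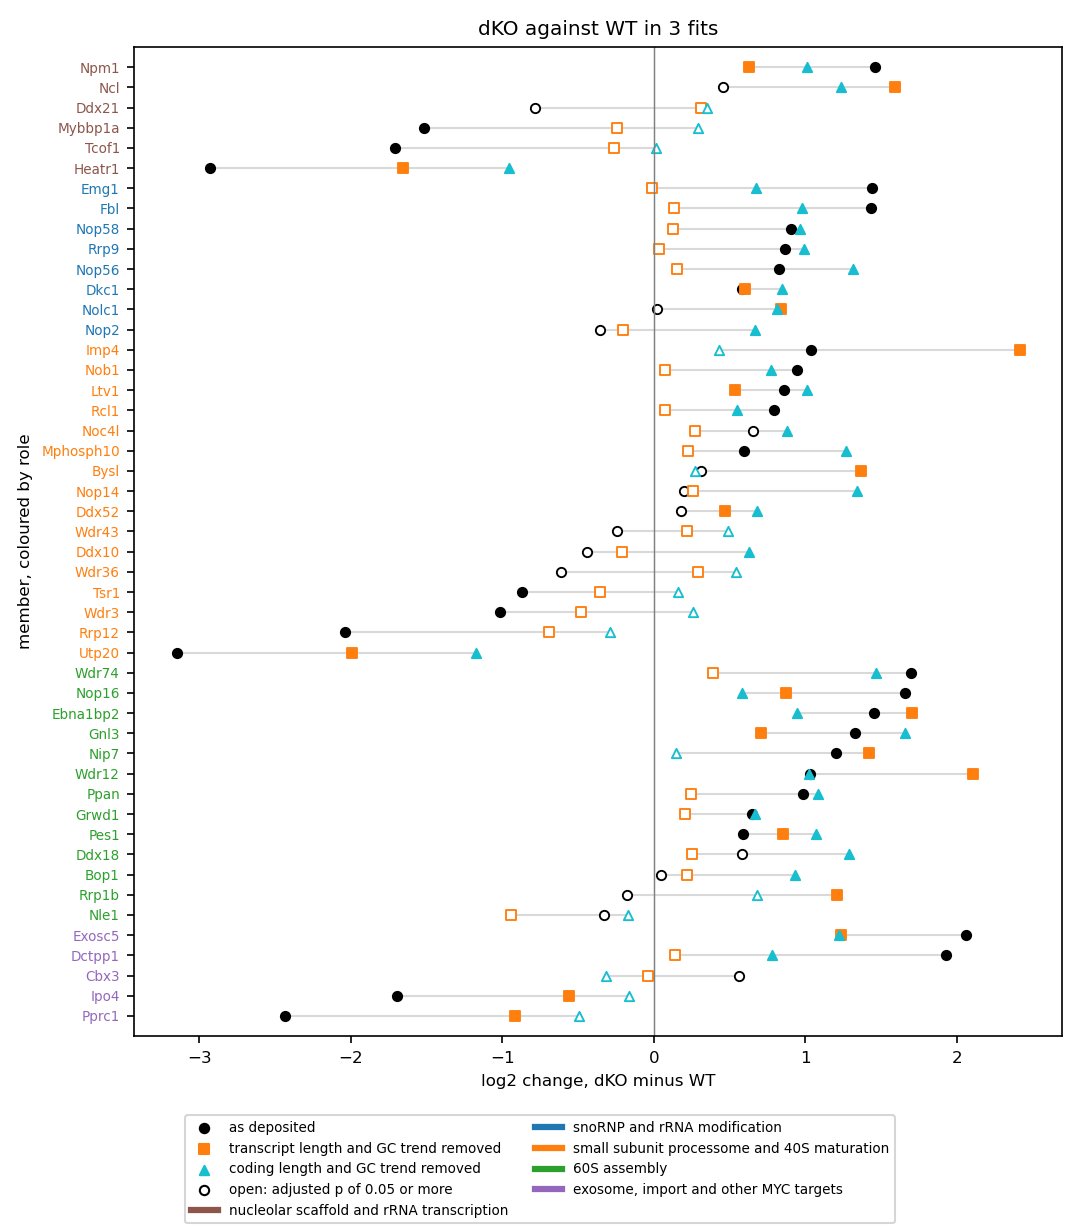
The log2 change of each member in dKO minus WT is shown as deposited (black circles), with the transcript length and GC trend removed (orange squares) and with the coding length and GC trend removed (cyan triangles). Filled symbols have an adjusted p under 0.05, and gene names are coloured by role. Gnl3 and Utp20 keep filled symbols on 1 side of 0, while Tcof1 moves from -1.71 to 0.014.

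Among the scaffold and rRNA transcription genes, Npm1 was higher and Heatr1, Tcof1 and Mybbp1a were lower in dKO than in WT, while Ncl and Ddx21 did not pass the test. Npm1 was at 6307, 6135 and 6225 in WT, 5844, 7006 and 9702 in Tet2 KO, 6683, 10622 and 6479 in Traf6 KO, with 14227, 15212 and 23269 in dKO. The 3 dKO libraries exceeded all 9 others (dKO against WT 1.46 ± 0.26, limma adjusted p = 0.0013). After removal of the trends the change was 0.63 (transcript, adjusted p = 0.034) and 1.01 (coding, adjusted p = 0.0047).

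Heatr1 was at 1440, 367 and 581 in dKO, below all WT and Traf6 KO libraries but overlapping Tet2 KO. Its change against WT was -2.93 ± 0.49 (limma adjusted p = 8.4e-04), and it was -1.66 and -0.95 with the trends removed (adjusted p = 0.0097 and 0.029). Tcof1, the treacle protein that recruits RNA polymerase I factors, was at 4709, 6904 and 8369 in WT and at 3668, 1231 and 1726 in dKO (-1.71 ± 0.37, adjusted p = 0.0032). Its value became -0.26 (adjusted p = 0.46) and 0.014 (adjusted p = 0.97) with the trends removed. Mybbp1a, a Myb-binding nucleolar protein, fell from 14756 ± 3256 in WT to 6024 ± 4451 in dKO (SD, n = 3; -1.52 ± 0.39, limma adjusted p = 0.0072). It was not called with either trend removed.

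Ncl, the most abundant member without regard to length, was at 31709, 45717 and 53332 in WT and at 68371, 51002 and 57224 in dKO, with overlap. As deposited it did not pass the test, but it was called higher with either trend removed (1.59 and 1.23). For Ncl the transcript trend uses a transcript of 8202 nucleotides and the coding trend uses 2121. Ddx21, an RNA helicase of rRNA transcription and processing, was at 3355, 5402 and 6542 in WT and at 4831, 2191 and 2196 in dKO and was called in none of the 3 fits.

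Of the 8 snoRNP and modification genes 6 were higher in dKO than in WT, 0 were lower, and Nolc1 and Nop2 did not pass the test, with a group median of 0.85 (21.9% of all genes higher, 26.5% lower). With the transcript trend removed 2 of the 8 were called higher and 0 lower (11.9% and 12.5% of all genes), with a median of 0.13. Of the 6 higher as deposited, only Dkc1 kept its call there, while Emg1, Fbl, Nop56, Nop58 and Rrp9 lost theirs. With the coding trend removed there were 8 and 0 (18.1% and 17.5% of all genes), with a median of 0.91. Emg1, a methyltransferase of 18S rRNA, and Fbl (fibrillarin), the methyltransferase of box C/D snoRNPs, had the largest changes. Emg1 was at 3870, 2614 and 2276 in WT and at 5041, 6151 and 14944 in dKO (1.44 ± 0.36, limma adjusted p = 0.0065). Its value was -0.015 with the transcript trend removed (adjusted p = 0.95) and was 0.68 with the coding trend removed (adjusted p = 0.027). Fbl was at 507, 688 and 643 in WT and at 1131, 1122 and 3524 in dKO (1.44 ± 0.41, adjusted p = 0.012). Both genes were more than 2 times higher in dKO replicate 3 than in the other dKO libraries.

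Nop58 and Nop56, the paired core proteins of box C/D snoRNPs, changed with a smaller spread. Nop58 was at 8432, 9658 and 10127 in WT, 8894, 9119 and 10374 in Tet2 KO, 10129, 10034 and 8739 in Traf6 KO, with 14825, 18871 and 19439 in dKO. All dKO libraries exceeded all others (0.91 ± 0.19 against WT, limma adjusted p = 0.0024). Nop56 was at 10472, 8101 and 7828 in WT and at 15138, 13849 and 17663 in dKO (0.83 ± 0.20, adjusted p = 0.0050). Neither was called with the transcript trend removed (0.13 and 0.15), and both were with the coding trend removed (0.97 and 1.31). Dkc1 (dyskerin), the pseudouridine synthase of box H/ACA snoRNPs and the 1 member on the X chromosome, was at 11538, 10554 and 11612 in WT and at 19701, 17894 and 13390 in dKO (0.58 ± 0.20, adjusted p = 0.030). That call was lost without any 1 WT library and without dKO replicate 1 or 2. Rrp9, a U3 snoRNP protein, was higher by 0.87 ± 0.26 (limma adjusted p = 0.014), a call lost without WT replicate 2.

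In the small subunit group 5 of 16 members were higher and 4 lower in dKO than in WT (21.9% and 26.5% of all genes), and the group median was 0.19. After the transcript trend was removed there were 4 higher and 1 lower (median 0.22, beside 11.9% and 12.5% of all genes), and with the coding trend removed 8 and 1 (median 0.55, beside 18.1% and 17.5%). The genes higher as deposited were Imp4 and Mphosph10 of the U3 snoRNP, Rcl1, a processome protein, and the late 40S factors Nob1 and Ltv1. Of these, Mphosph10, Nob1 and Rcl1 lost their calls with the transcript trend removed. Imp4 was at 4406, 3633 and 3835 in WT and at 7432, 7622 and 9331 in dKO (1.04 ± 0.22, limma adjusted p = 0.0026). It was 2.42 with the transcript trend removed, which uses a transcript of 5836 nucleotides, and 0.43 with the coding trend removed, which uses 873 (adjusted p = 0.078). Ltv1, an escort of the 40S precursor out of the nucleus, was at 3429, 3451 and 3927 in WT and at 6141, 7262 and 6250 in dKO (0.86 ± 0.22, adjusted p = 0.0076). Its values with the trends removed were 0.54 (adjusted p = 0.049) and 1.01 (adjusted p = 0.0037), and its call was lost with equal library totals. Nob1, the endonuclease that makes the 3′ end of 18S rRNA, was higher by 0.95 ± 0.27 (limma adjusted p = 0.013) and Rcl1 by 0.79 ± 0.21 (adjusted p = 0.0078). Mphosph10 was just past the threshold (0.59 ± 0.23, adjusted p = 0.049), and its call was lost without any of 9 single libraries.

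The lower genes of that group were Utp20, Rrp12, Wdr3 and Tsr1. Utp20 was at 280, 107 and 363 in dKO, below all 9 other libraries. Its change against WT, -3.15 ± 0.48 (limma adjusted p = 5.2e-04), was the largest fall of any member, and it was -1.99 and -1.17 with the trends removed (adjusted p = 0.0036 and 0.012). Rrp12, a HEAT-repeat export factor, was at 1615, 2548 and 3017 in WT and at 1430, 295 and 422 in dKO (-2.04 ± 0.48, adjusted p = 0.0048). It was not called with the trends removed (-0.69 and -0.29). Wdr3 (-1.01 ± 0.36, limma adjusted p = 0.031) and the GTPase-like factor Tsr1 (-0.87 ± 0.32, adjusted p = 0.036) lost their calls without several single libraries, and the Tsr1 groups overlapped. Both genes also lost their calls with either trend removed. The 7 others, Wdr43, Wdr36, Nop14, Noc4l, Ddx10, Ddx52 and Bysl, had changes from -0.61 to 0.65 and did not pass the test.

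Among the 60S assembly genes 9 of 13 were higher and 0 lower in dKO than in WT (21.9% and 26.5% of all genes), with a group median of 0.99. Once the transcript trend was removed there were 7 higher and 0 lower (median 0.71, beside 11.9% and 12.5% of all genes), and with the coding trend removed 10 and 0 (median 0.95, beside 18.1% and 17.5%). Gnl3 was at 14444, 15517 and 16448 in dKO, above all 9 other libraries, of which the highest was 9571 in Traf6 KO. Its change against WT was 1.33 ± 0.21 (limma adjusted p = 6.3e-04), and it was 0.71 and 1.66 with the trends removed (adjusted p = 0.011 and 5.1e-04). Its value stayed between 1.28 and 1.38 when any 1 library was left out. Wdr74 and Nop16 changed more on average and with a wider spread. Wdr74, a factor of late nucleolar 60S maturation, was at 1760, 1633 and 1591 in WT and at 3851, 3835 and 10636 in dKO (1.70 ± 0.38, limma adjusted p = 0.0036). Nop16, a nucleolar protein and MYC target, was at 3087, 2528 and 2499 in WT and at 5741, 6721 and 15917 in dKO (1.66 ± 0.38, adjusted p = 0.0041). In both genes dKO replicate 3 was more than 2 times above the other dKO libraries. Wdr74 lost its call with the transcript trend removed.

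Ebna1bp2, a 60S assembly factor, had the same shape, at 3899, 3748 and 3646 in WT and 6428, 7508 and 22669 in dKO (1.45 ± 0.38, limma adjusted p = 0.0077). Pes1, Bop1 and Wdr12 form the PeBoW complex, which is needed to process the precursor of the large subunit rRNA, and they moved by unequal amounts. Wdr12 was at 4659, 3623 and 3943 in WT and at 7179, 8106 and 9762 in dKO (1.03 ± 0.24, adjusted p = 0.0043). For Wdr12 the transcript trend uses a transcript of 10012 nucleotides and the coding trend uses 1269. Pes1 was at 3732, 3631 and 4434 in WT and at 6770, 6506 and 4668 in dKO (0.59 ± 0.23, adjusted p = 0.049), a call that was lost without any of 10 single libraries. Bop1 was at 3980, 3867 and 4525 in WT and at 5767, 4634 and 2883 in dKO, with overlap and a change of 0.05. Differences between the 3 genes were not tested.

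Nip7 (1.20 ± 0.31, limma adjusted p = 0.0080), Ppan (0.99 ± 0.25, adjusted p = 0.0066) and Grwd1 (0.65 ± 0.21, adjusted p = 0.021) were also higher in dKO, with no overlap between dKO and WT. Nip7 was not called with the coding trend removed, and Ppan and Grwd1 were not called with the transcript trend removed. Ddx18, Bop1, Rrp1b and Nle1 did not pass the test as deposited, with changes from -0.33 to 0.58.

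The remaining 5 genes held both the largest rise and a fall of similar size. Exosc5, a subunit of the RNA exosome that trims precursor rRNA, was at 2966, 2241 and 2290 in WT, 2321, 3521 and 3603 in Tet2 KO, 2686, 4440 and 2972 in Traf6 KO, with 5831, 7008 and 27267 in dKO. All dKO libraries exceeded the others, and dKO replicate 3 was far above the other dKO libraries (2.06 ± 0.46, limma adjusted p = 0.0036). The change ranged from 1.37 to 2.48 over the fits that leave out 1 library, and it was 1.24 and 1.22 with the trends removed. Dctpp1, which hydrolyses non-canonical dCTP and is the member with the shortest transcript (676 nucleotides), was at 2017, 1304 and 1238 in WT and at 2881, 3951 and 15890 in dKO (1.93 ± 0.50, adjusted p = 0.0074). It was not called with the transcript trend removed (0.14).

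Pprc1, a coactivator of nuclear genes for mitochondria, was at 3349, 4598 and 5164 in WT and at 1486, 556 and 602 in dKO (-2.44 ± 0.39, limma adjusted p = 6.7e-04). Ipo4, an importin that carries histones and ribosomal proteins into the nucleus, was at 2884, 4044 and 3725 in WT and at 1804, 1152 and 611 in dKO (-1.70 ± 0.32, adjusted p = 0.0016). Both were called lower with the transcript trend removed (-0.91 and -0.56) and not with the coding trend removed (-0.50 and -0.16). Cbx3, a heterochromatin protein, was at 443 ± 61.2 in WT and 657 ± 124 in dKO (SD, n = 3) and was not past the threshold in any of the 3 fits.

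**Figure D4:**
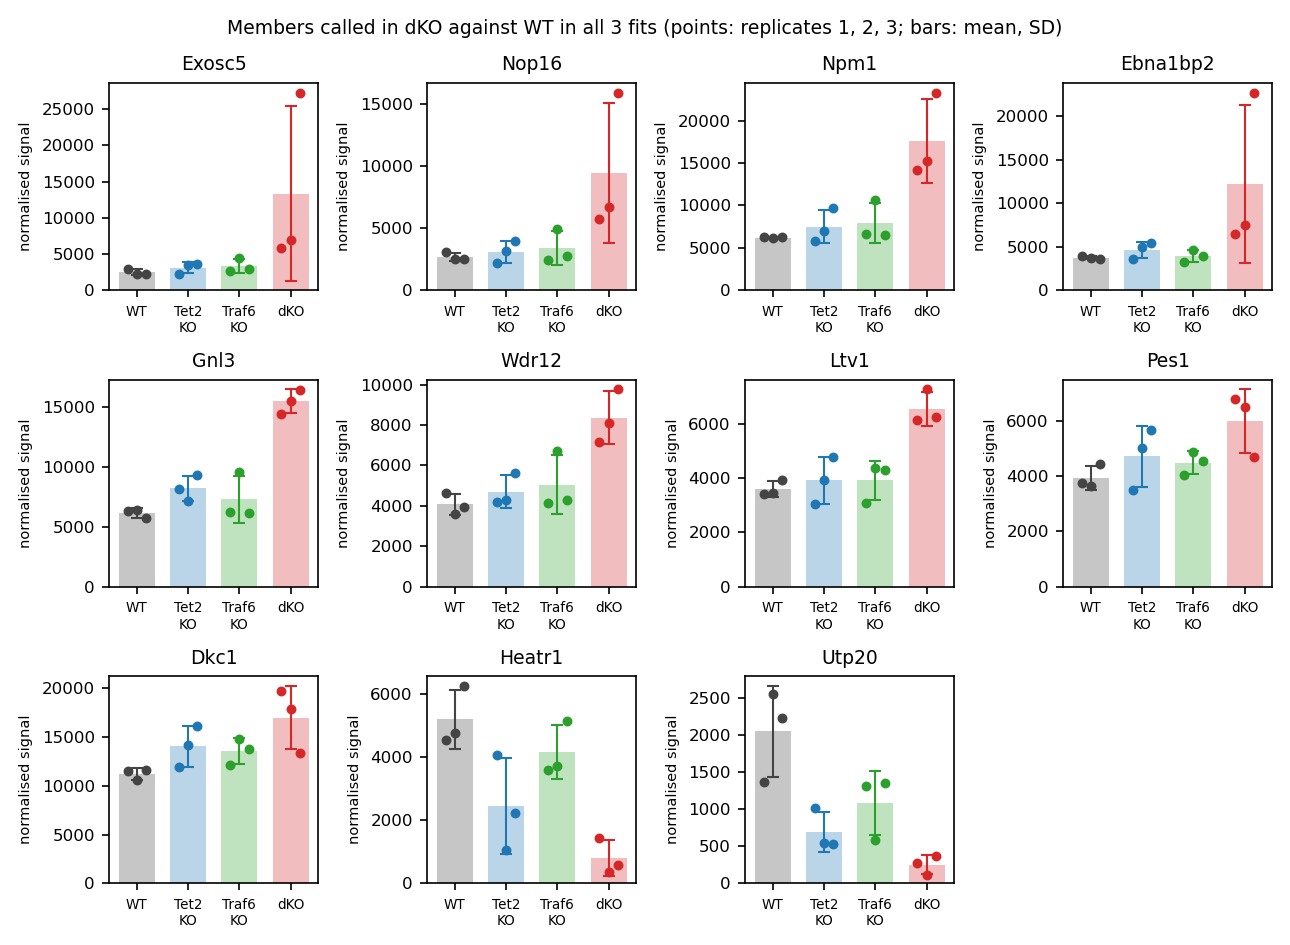
Normalised signal of the 11 members called in dKO against WT in all 3 fits, with 1 point a library, bars at the mean and error bars of 1 SD over 3 libraries. Gnl3, Npm1 and Nop16 are higher in each dKO library than in all 9 others, and Utp20 is lower in each.

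The 3 dKO libraries were not alike, and the normalised signal of replicate 3 summed to 1.39 times the mean of the other dKO libraries. Of the 23 higher members, 19 had their highest dKO value in replicate 3, 3 in replicate 1 and 1 in replicate 2. In 7 of the 23 (Fbl, Emg1, Ebna1bp2, Nop16, Wdr74, Exosc5 and Dctpp1) the replicate 3 value was more than 2 times each of the other dKO values. Scaled to equal totals, 11 of the 23 had their highest dKO value in replicate 3, 6 in replicate 1 and 6 in replicate 2, and 4 (Fbl, Ebna1bp2, Exosc5 and Dctpp1) were more than 2 times higher in replicate 3. Of the 9 lower members, 8 had their highest dKO value in replicate 1. In members with transcripts up to 2000 nucleotides the median relative to WT was 0.82, 0.88 and 1.42 in dKO replicates 1 to 3, and in members above 4000 nucleotides it was -0.20, -1.50 and -1.71. For all genes of these lengths the medians were 0.60, 0.96 and 1.90 in the short class and -0.94, -1.62 and -1.54 in the long class. Leaving out dKO replicate 1 gave 20 higher and 13 lower members (25.6% and 30.0% of all genes), and leaving out replicate 3 gave 23 and 7 (17.8% and 24.1%).

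Against Tet2 KO, dKO had 15 members higher, 8 lower and 25 neither (limma, Benjamini-Hochberg; 15.5% and 19.9% of all genes called), with a median of 0.34 beside -0.12 over all genes. The groups did not overlap for 21 members above and 5 below, beside 22.0% and 24.2% of all genes. With equal library totals the split was 11 higher and 9 lower (10.4% and 24.3% of all genes). The higher members by role were 1 of 6 scaffold genes, 3 of 8 snoRNP genes, 3 of 16 small subunit genes, 6 of 13 60S genes and 2 of 5 others. The largest changes were in Dctpp1 (1.96 ± 0.50, limma adjusted p = 0.014), Exosc5 (1.75 ± 0.46, adjusted p = 0.015) and Nop16 (1.50 ± 0.38, adjusted p = 0.014). Wdr74 (1.36 ± 0.38, adjusted p = 0.018), Emg1 (1.28 ± 0.36, adjusted p = 0.019), Fbl (1.24 ± 0.41, adjusted p = 0.033) and Npm1 (1.22 ± 0.26, adjusted p = 0.0091) followed. Imp4 (0.81 ± 0.22, adjusted p = 0.016) and Ltv1 (0.76 ± 0.22, adjusted p = 0.022) led the small subunit group.

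The lower members were Pprc1 (-1.88 ± 0.39, limma adjusted p = 0.0084), Rrp12 (-1.67 ± 0.48, adjusted p = 0.020), Heatr1 (-1.65 ± 0.49, adjusted p = 0.022), Utp20 (-1.58 ± 0.48, adjusted p = 0.024), Tcof1 (-1.48 ± 0.37, adjusted p = 0.013), Ipo4 (-1.46 ± 0.32, adjusted p = 0.0096), Mybbp1a and Tsr1. Heatr1, Rrp12 and Mybbp1a overlapped between the groups. With the transcript trend removed 10 members were higher and 0 lower (6.76% and 5.15% of all genes), and with the coding trend removed 19 and 0 (9.76% and 10.1%). Exosc5 and Wdr12 were called higher in all 3 fits. The calls as deposited rest on the library labelled Tet2 KO replicate 1: without it 2 members were higher and 2 lower (1.49% and 4.77% of all genes), and without it and Traf6 KO replicate 1 there were 0 and 0 (0.189% and 0.218%), with a median of 0.15. The calls over all genes thus dropped as well.

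Against Traf6 KO, dKO had 21 members higher, 7 lower and 20 neither (limma, Benjamini-Hochberg; 17.3% and 20.7% of all genes called), with a median of 0.46 beside 0.02 over all genes. The groups did not overlap for 23 members above and 7 below, beside 23.2% and 21.8% of all genes. Exosc5 (1.66 ± 0.46, limma adjusted p = 0.018), Dctpp1 (1.63 ± 0.50, adjusted p = 0.025), Wdr74 (1.51 ± 0.38, adjusted p = 0.012) and Ebna1bp2 (1.41 ± 0.38, adjusted p = 0.016) rose most. Emg1 (1.34 ± 0.36, adjusted p = 0.016), Fbl (1.21 ± 0.41, adjusted p = 0.034), Npm1 (1.15 ± 0.26, adjusted p = 0.0080) and Nob1 (1.14 ± 0.27, adjusted p = 0.0094) were higher too.

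Heatr1 (-2.60 ± 0.49, limma adjusted p = 0.0032), Utp20 (-2.19 ± 0.48, adjusted p = 0.0061), Rrp12 (-2.14 ± 0.48, adjusted p = 0.0072), Pprc1 (-1.91 ± 0.39, adjusted p = 0.0044), Tcof1 (-1.71 ± 0.37, adjusted p = 0.0061), Mybbp1a and Ipo4 (-1.47 ± 0.32, adjusted p = 0.0064) fell. With the transcript trend removed 9 members were higher and 1 lower (7.32% and 8.08% of all genes), and with the coding trend removed 25 and 1 (10.7% and 12.8%). Called in all 3 fits were Ebna1bp2, Gnl3 and Wdr12, higher, and Heatr1, lower. Without Traf6 KO replicate 1 there were 8 higher and 7 lower members (3.73% and 12.7% of all genes), and without Traf6 KO replicate 3 there were 10 and 7 (3.11% and 11.7%). Without dKO replicate 1 there were 20 higher and 13 lower (23.5% and 26.3%). The 3 comparisons with dKO share its 3 libraries, so their values are set side by side and their overlap is not a result.

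The question of whether dKO differed from the sum of both single-knockout changes was put to the interaction, which is the change from Tet2 KO to dKO minus the change from WT to Traf6 KO. WT and dKO enter it with the same sign and both single knockouts with the other. It therefore cannot be told apart from sex, and Xist had an interaction of -18.5 (limma adjusted p = 7.4e-06). Of the 48 members 0 were called in either direction (limma, Benjamini-Hochberg; 0.107% and 0.114% of all genes), 14 had an unadjusted p under 0.05 (18.6% of all genes did), edgeR called 0, and DESeq2 called Nop58. The median was 0.32 beside -0.01 over all genes. The smallest p belonged to Nop58 (0.86 ± 0.26, limma adjusted p = 0.21), Tcof1 (-1.48 ± 0.52, adjusted p = 0.23) and Ipo4 (-1.23 ± 0.46, adjusted p = 0.24). Without dKO replicate 1 there were 3 higher and 8 lower members, beside 5.29% and 12.4% of all genes, and without any other single library there were 0. With the transcript trend removed (0.0877% of all genes called in each direction) and with the coding trend removed (0.103% and 0.0948%) there were no calls.

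Members with the E-box shown above also had longer transcripts than those without it. Of the 12 with a canonical E-box in the promoter window, 5 were higher and 4 lower in dKO than in WT, with a median change of -0.29 (all tested genes with the motif: 23.0% higher, 29.3% lower, median -0.20) and a median transcript of 3150 nucleotides. Of the 30 without it, 16 were higher and 3 lower, with a median of 0.62 (all tested genes without it: 22.0% higher, 28.5% lower, median -0.16) and a median transcript of 2480 nucleotides. The medians with the transcript trend removed were -0.0014 and 0.25, and with the coding trend removed 0.46 and 0.80. Among the genes whose motif is printed, Exosc5, Imp4, Pes1 and Ltv1 were higher, Utp20 and Ipo4 lower, and Nop2 neither. The difference between the groups was not tested.

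Genes of the wider pathway were counted in the same way. Of 112 other ribosome biogenesis factors 110 were in the table and tested, and 0 were called in Tet2 KO or Traf6 KO against WT. In dKO against WT 51 were higher, 21 lower and 38 neither, with a median of 0.55, beside 21.9% and 26.5% of all genes and an all-gene median of -0.09. With the trends removed the counts were 34 and 7 (transcript, median 0.29, beside 11.9% and 12.5% of all genes) and 63 and 5 (coding, median 0.69, beside 18.1% and 17.5%). Against Tet2 KO 42 were higher and 17 lower (15.5% and 19.9% of all genes), and against Traf6 KO 47 and 15 (17.3% and 20.7%). The smallest p values belonged to falling genes: Nol6, a processome protein, from 4982 ± 1234 to 1152 ± 698 (-2.24 ± 0.36, limma adjusted p = 6.9e-04), the helicase Dhx33 (-2.55 ± 0.42, adjusted p = 7.7e-04) and Urb1, a 60S factor (-2.23 ± 0.37, adjusted p = 7.9e-04).

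Of the 27 genes of the second MYC hallmark set that are not members, 10 were higher and 1 lower in dKO than in WT, with a median of 0.47, beside the same 21.9% and 26.5% of all genes. With the trends removed the counts were 2 and 2 (transcript, beside 11.9% and 12.5%) and 12 and 2 (coding, beside 18.1% and 17.5%). Cdk4, a kinase of the G1 phase, went from 17820 ± 974 to 37444 ± 10315 (SD, n = 3; 1.04 ± 0.22, limma adjusted p = 0.0027), and Phb (prohibitin) from 1696 ± 213 to 3596 ± 596 (1.08 ± 0.24, adjusted p = 0.0035).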

How the data were processed

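RNA of sorted LSK cells was amplified with a SMART-Seq v4 low-input kit and sequenced on a HiSeq 4000, per the labels' protocols. The authors deposited 1 table of normalised signal, in which each library's gene reads are scaled by 1 factor. Tools named in the submitters' processing notes are bcl2fastq, STAR, featureCounts and DESeq2, with builds mm10 and GRCm38. Their versions are not given in the sources used here. Each library's smallest value above 0, used as a divisor, gave whole reads for every value (tolerance 1e-06).

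The values were tested with limma 3.58.1 (R 4.3.3; trend and robust options) on log2(value + 1), with all 12 libraries as 4 groups and no covariate. Genes reaching 10 signal units in 3 libraries or more entered, p-values were adjusted by Benjamini-Hochberg over all genes of a comparison, and the threshold was 0.05. All changes are differences of log2(value + 1), which understates those of low genes. Alternatives were edgeR 4.0.16 and DESeq2 1.42.0 on the recovered reads, TMM and equal-total scaling, a pseudocount of 5, no filter, a replicate block, fits of the compared groups only, libraries left out, and loess trends (span 0.5) on length and GC removed. Lengths are those of the principal GENCODE M21 transcript (GRCm38), which covered 97.4% of genes tested, and coding lengths covered 90.1%. Copies were found with blastn 2.17.0 (at least 95% identity over 300 nucleotides). Only the limma fit of dKO against WT was tested on simulated reads, which held no length trend. The other fits were not tested in this way. Members named with statistics are the largest called changes of each role or, with none called, the 3 smallest p, and those called with the trend removed. The members and lists were chosen with earlier results of these data known. Nop58, Nop56, Ncl, Nob1 and some others are described in addition, chosen after their values were seen. Same-numbered libraries did not deviate together (3 of 18 correlations above 0.1, from -0.18 to 0.19).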

Additional observations from a re-analysis of the deposited data

Results flagged for a closer look

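Ung encodes a uracil-DNA glycosylase, an enzyme of base excision repair, and belongs to the second MYC hallmark set. It is named here because it was the 1 gene of the wider lists whose interaction passed the test. It was at 1521, 1653 and 1860 in WT, 168, 146 and 120 in Tet2 KO. Traf6 KO libraries stood at 261, 213 and 215, and dKO libraries at 209, 235 and 354. Each mutant group lay below WT (log2 changes -3.54, -2.86 and -2.69, limma adjusted p = 7e-05, 3.5e-04 and 2.9e-04), and the interaction was 3.71 ± 0.42 (SE, limma adjusted p = 0.0011). The dKO value was not lower than those of the single knockouts. Over the planned and added alternatives the interaction ranged from 3.28 to 3.92. Sex and genotype cannot be told apart in this interaction, and the cause was not tested.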

How the results depend on the processing

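Of 1461 alternative values of the 61 results on named members, 1257 kept direction and call, 193 lost the call, 6 gained one and 5 changed sign. Those 5 were Emg1 with the transcript trend removed, without and with the replicate block (-0.015 in dKO against WT, -0.018 against Tet2 KO), and Tcof1 in dKO against WT with the coding trend removed (0.014). In Tet2 KO against WT 1 lower member was called with only the compared groups and 1 with DESeq2 (2.22% and 1.50% of all genes were lower). In dKO against WT the lower members numbered 4 with the transcript trend removed, 4 with the block as well and 2 with the coding trend removed, and the median was 0.22, 0.22 and, with equal totals, 0.32. With these trends removed 12.5%, 12.2% and 17.5% of all genes were called lower. In dKO against Tet2 KO, fits of only the compared groups gave 0 higher and 0 lower (0.273% and 0.190% of all genes), as did leaving out both libraries at the WT level of their targeted gene (median 0.15, with 0.189% and 0.218% of all genes called). Lower members were 0 with the transcript trend removed, 0 with the block as well and 0 with the coding trend removed (5.15%, 4.83% and 10.1% of all genes), and the median was 0.088 with equal totals and 0.53 with the coding trend removed. In dKO against Traf6 KO the higher members numbered 1 with only the compared groups, 9 with the transcript trend removed, 9 with the block as well and 5 without both libraries (0.827%, 7.32%, 7.37% and 2.01% of all genes). The lower ones numbered 1, 1 and 1 with the transcript trend removed, with the block as well and with the coding trend removed (8.08%, 7.89% and 12.8% of all genes), and the medians were 0.22, 0.22 and 0.66, and 0.26 with equal totals. The interaction had 1 higher member with DESeq2 (0.676% of all genes), and its median was 0.13 with equal totals, 0.13 without both libraries and 0.57 with the coding trend removed. Leaving out 1 library gave 18 to 23 higher and 7 to 13 lower members in dKO against WT, 2 to 17 and 2 to 14 against Tet2 KO (median 0.15 to 0.49), 8 to 21 and 7 to 13 against Traf6 KO, and 0 to 3 and 0 to 8 in the interaction. Over all genes those fits called 14.1% to 25.6% higher and 19.6% to 30.0% lower in dKO against WT. The shares were 1.49% to 21.8% and 4.77% to 26.4% against Tet2 KO. They were 3.11% to 23.5% and 11.7% to 26.3% against Traf6 KO, and 0.0359% to 5.29% and 0.0646% to 12.4% in the interaction. Against Tet2 KO, leaving out Tet2 KO replicate 3 gave 4 lower members, and leaving out dKO replicate 2 gave 3, dKO replicate 3 gave 4 and dKO replicate 1 gave 14 (14.5%, 12.6%, 15.2% and 26.4% of all genes). The replicate number as a block, which shares no stated origin between libraries, gave 22 higher and 8 lower members in dKO against WT (21.0% and 25.8% of all genes), 15 and 7 against Tet2 KO (14.2% and 18.8%), and 20 and 7 against Traf6 KO (15.2% and 19.8%). The causes were not tested, other than that fits of only the compared groups hold fewer libraries. Each group held 3 libraries, which limits the precision, and whether depth limited the calls was not tested.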
